A study of Mus musculus with 16 samples.

Results

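The colony stimulating factors and their receptors are 8 genes, taken by symbol from the gene table: the ligands Csf1, Csf2 and Csf3 and the receptor chains Csf1r, Csf2ra, Csf2rb, Csf2rb2 and Csf3r. They are 8 of 22287 genes listed, and all 8 were among the 12514 genes tested. Bone marrow of C57BL/6J mice at 8 weeks of age was cultured for 7 days with GM-CSF (GM cells) or M-CSF (M cells), on tissue-culture treated (TC) or untreated (noTC) dishes. The cells were then harvested at steady state or after 3 h with LPS, an agonist of the receptor TLR4, and bulk RNA was sequenced. This gave 8 groups of 2 libraries: GM-TC, GM-noTC, GM-TC-LPS, GM-noTC-LPS, M-TC, M-noTC, M-TC-LPS and M-noTC-LPS. The study's methods give a different growth factor concentration and seeding density for GM and M cultures, so a difference between GM and M cells cannot be told apart from these. No genotype other than the strain is labelled, and the study calls the 2 libraries of a group biological replicates. The p-values measure the spread between these libraries.

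M-CSF, the product of Csf1, keeps monocytes and macrophages alive and growing through Csf1r, a receptor tyrosine kinase that also binds IL-34. GM-CSF, the product of Csf2, binds the alpha chain Csf2ra, which signals once it is joined to the common beta chain Csf2rb, a chain shared with the IL-3 and IL-5 receptors, while Csf2rb2 is a further beta chain of the mouse that serves IL-3. G-CSF, the product of Csf3, acts through Csf3r and is best known for raising neutrophil output. The cytokines added to the dishes were proteins, so the reads of Csf1 and Csf2 come from the RNA of the cells themselves.

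Csf2rb and Csf2rb2 are near copies, and the number of reads given to each depends on the bases at which they differ. In the GENCODE M21 annotation (GRCm38), Csf2rb lies at chr15:78325752-78353847 on the plus strand and Csf2rb2 at chr15:78282507-78305721 on the minus strand. Their longest coding sequences are 2688 and 2634 bases long, and 95.2% of the 2628 aligned positions were identical. The 120-base window with the most differences is printed here because it shows what can separate reads of the 2 genes. It spans coding bases 309 to 428 of Csf2rb and 312 to 431 of Csf2rb2, with the 22 differing bases in capitals.
Csf2rb: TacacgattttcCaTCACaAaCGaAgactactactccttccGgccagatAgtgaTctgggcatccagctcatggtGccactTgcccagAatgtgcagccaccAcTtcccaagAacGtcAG
Csf2rb2: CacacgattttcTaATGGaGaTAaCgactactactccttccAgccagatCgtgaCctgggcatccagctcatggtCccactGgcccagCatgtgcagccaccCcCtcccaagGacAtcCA
The longest identical run was 242 bases, and its first 120 bases (coding bases 2083 to 2202 in both genes) are shown because a read from within them fits both.
Csf2rb and Csf2rb2: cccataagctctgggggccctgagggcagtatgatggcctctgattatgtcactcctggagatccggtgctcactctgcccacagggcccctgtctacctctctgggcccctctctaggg
Of all 150-base stretches of the Csf2rb transcripts, 2.30% also occurred in transcripts of Csf2rb2, and 12.3% of its 50-base stretches did. For Csf2rb2 the shares were 3.33% and 18.4%. The study names RSEM as its counting tool, but how many such reads went to each gene cannot be told from the counts. Values of either gene alone are therefore uncertain. The shares above describe the sequences only, and the size of this uncertainty was not estimated.

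Promoter sequence is printed for Csf1, which had the largest rise upon LPS challenge among the 6 members with reads in every group, and for Csf2rb2, which was higher in GM cells. RefSeq windows of GRCm38.p6 were matched for 5 of the 8 members by symbol, and the 250 bases before the RefSeq start are used here. The window of Csf1 is chr3:107760470-107760719 on the minus strand, with the match to the NF-κB consensus in capitals, at positions -154 to -145 from the start.
Csf1: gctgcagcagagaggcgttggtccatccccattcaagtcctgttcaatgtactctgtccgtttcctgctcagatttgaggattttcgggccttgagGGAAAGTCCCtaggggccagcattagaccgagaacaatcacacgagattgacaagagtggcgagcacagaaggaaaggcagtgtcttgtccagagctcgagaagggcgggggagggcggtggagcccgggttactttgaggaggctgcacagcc
The window of Csf2rb2 is chr15:78305722-78305971 on the minus strand, with a match to the PU.1 core GAGGAA, read on the opposite strand, in capitals at positions -167 to -162.
Csf2rb2: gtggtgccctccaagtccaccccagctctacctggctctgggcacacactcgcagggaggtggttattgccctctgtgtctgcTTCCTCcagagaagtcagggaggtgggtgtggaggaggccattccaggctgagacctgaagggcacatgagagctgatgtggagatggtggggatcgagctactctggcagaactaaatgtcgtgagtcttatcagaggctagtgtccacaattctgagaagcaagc
Both strands were searched. The NF-κB consensus occurred in 3.90% of all 32851 promoter windows of this length and the PU.1 core in 23.3%. Among the 5 windows, the NF-κB consensus was in Csf1 alone, and the PU.1 core was in Csf2ra, Csf2rb2 and Csf3r. The Csf2 window (chr11:54249900-54250149, minus strand) did not reach the GENCODE M21 gene, which starts at 54249667. The bases next to that start were therefore not searched. The windows of Csf3r (chr4:126024409-126024658, gene start 126024550) and Csf2ra (chr19:61228419-61228668, gene start 61228429 on the minus strand) overlapped their GENCODE genes. The C/EBP motif TTNNGNAA (36.8% of all windows) was in Csf2 and Csf2ra, overlapping no other match, and the CRE TGACGTCA (1.55%) was in Csf2ra. The AP-1 motif TGANTCA (6.75%) and the interferon-stimulated response element (2.98%) were in none of the 5. A match in these letters is a description of the window and not evidence of binding.

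Total counts per library lay between 17527802 and 31458363, and 3 counts in a library, taken as the floor, correspond to between 0.0954 and 0.171 CPM, the count scaled to a common library total. Levels are given in CPM after edgeR's TMM scaling, which corrects for differences in RNA composition between libraries. A single quasi-likelihood model of edgeR took in all 16 libraries, and a gene was called at a Benjamini-Hochberg adjusted p under 0.05 over all genes tested. With 2 libraries against 2, an exact permutation test has a smallest two-sided p of 0.333, so the tests lean on the spread shared over genes and groups. All 7 macrophage markers listed (Adgre1, Cd68, Itgam, Mertk, Lyz2, Fcgr1 and Cd14) had reads in every group. Their sum was 37028 to 46996 CPM in GM libraries and 18347 to 27391 CPM in M libraries, most of it Lyz2. Between GM and M cells at steady state the list was split, with 3 of the 7 called higher and 4 lower in GM on each dish (median log2 fold change -0.38 on TC and -0.58 on noTC dishes). Adgre1, for example, had 221 CPM in GM-TC and 824 CPM in M-TC. All 7 dendritic cell markers had reads in both cultures, with a sum of 939 to 1098 CPM in GM and at most 63.1 CPM in M cells, most of it Itgax. In bulk RNA, fewer cells of a type and less RNA per cell cannot be told apart.

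Per length of exon, the order of the 8 genes differed between the cultures. The length is that of all exons annotated for a gene, joined over all its transcripts, whether or not the cells used them. In GM-TC cells the beta chain Csf2rb stood first at 265 CPM per kb, followed by Csf2rb2 at 158, Csf1r at 146 and Csf2ra at 55.7 CPM per kb. In M-TC cells Csf1r stood first at 495 CPM per kb, and the next was Csf2rb2 at 37.1 CPM per kb. Csf2ra and Csf2rb were level with each other in M-TC cells at 24.6 and 24.7 CPM per kb. Upon LPS challenge Csf1 had the second place in M-TC-LPS cells at 93.0 CPM per kb and the fourth in GM-TC-LPS cells at 95.9 CPM per kb. Csf3 was at or near 0 at steady state and the lowest of the 8 upon LPS challenge in all 4 cultures, at 0.841 to 1.41 CPM per kb.

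**Figure D1:**
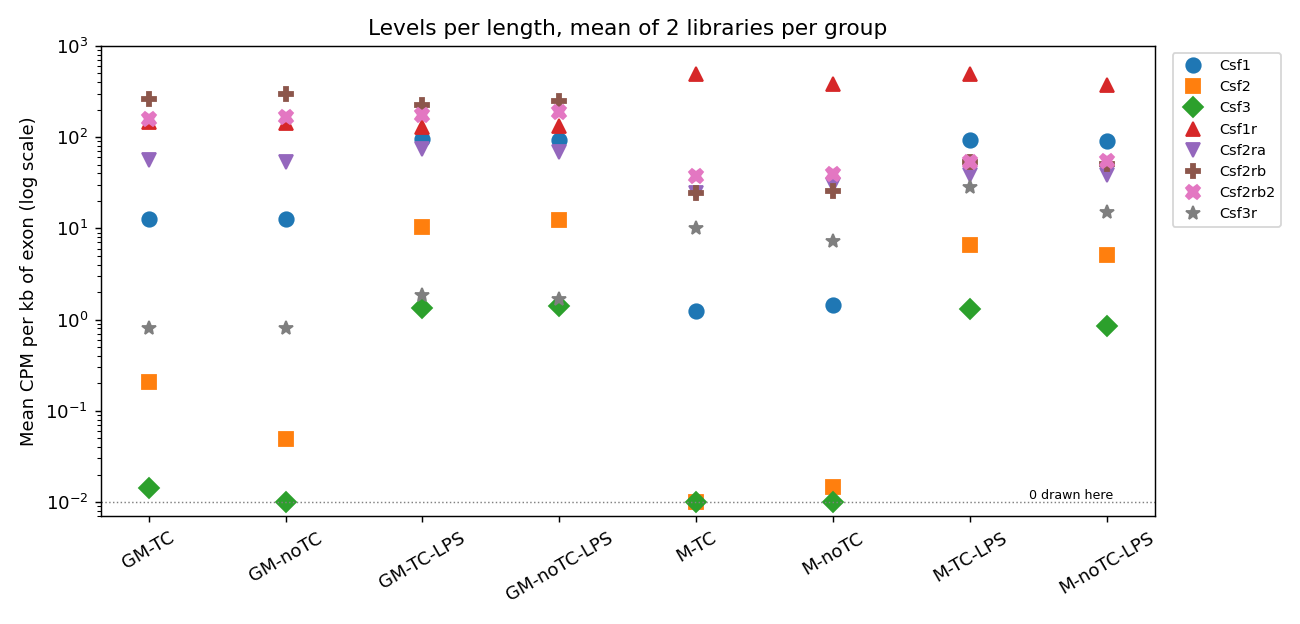
Mean CPM per kb of exon (log axis) of the 8 genes in the 8 groups, 2 libraries each, with a mean of 0 drawn on the dotted line. Csf2rb is the highest of the 8 in each GM group and Csf1r in each M group.

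At steady state on TC dishes, 7 of the 8 genes were called between GM and M cells, 5 higher and 2 lower in GM, where 32.6% of all genes tested were called higher and 28.9% lower. On noTC dishes 4 were called higher and 2 lower in GM, where the shares of all genes were 31.4% and 30.7%. The median log2 fold change of the 8 genes, GM over M, was 2.25 on TC and 1.03 on noTC dishes, and that of all genes was 0.02 and 0. One of the middle values on TC dishes is that of Csf3 (2.40), fitted from 1 count against 0. On noTC dishes it is that of Csf2 (1.21), fitted from 2 counts against 1. Both medians, and the difference between the dishes, thus depend on edgeR's prior count.

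Csf1, the M-CSF gene, was higher in cells grown with GM-CSF than in those grown with M-CSF. Its level was 67.5 and 66.9 CPM in the GM-TC libraries and 69.0 and 66.4 CPM in GM-noTC. In M-TC it was 6.58 and 6.40 CPM, and in M-noTC 7.38 and 7.83 CPM. All 4 GM libraries at steady state lay above all 4 M libraries, and the GM libraries of both dishes overlapped. The difference was 10.3-fold on TC (log2 3.37, SE 0.079, adjusted p = 1.2e-19 from edgeR) and 8.87-fold on noTC dishes (log2 3.15, SE 0.073, adjusted p = 7.7e-20 from edgeR).

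Csf2 and Csf3, the genes of GM-CSF and G-CSF, were close to silent at steady state. Csf2 had 5 and 2 counts in the libraries of GM-TC, and 1 and 1 in those of GM-noTC. There were no counts in M-TC, and 0 and 1 in M-noTC. The GM-TC mean was 1.44-fold a floor of 3 counts in each library of M-TC. With 2 counts, GM-TC replicate 2 lies under that floor itself, so this value is no lower bound. The GM-TC count was called above M-TC (adjusted p = 0.0095 from edgeR). It rests on 7 counts, and it was not called without GM-TC replicate 1 (adjusted p = 0.080 from edgeR), without M-TC replicate 2 (adjusted p = 0.051 from edgeR) or with DESeq2 on the 4 libraries (adjusted p = 0.16). Csf3 had 1 count in 1 GM-TC library and none in the other 7 steady state libraries, which allows up to 3 counts in each.

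Csf1r, the M-CSF receptor, was higher in M cells. Its level was 872 and 812 CPM in GM-TC and 819 and 837 CPM in GM-noTC. In M-TC it was 2894 and 2823 CPM, and in M-noTC 2181 and 2273 CPM. The groups of GM and M did not overlap, and M-noTC lay between M-TC and the GM groups. The level in M was 3.40-fold that in GM on TC (log2 GM over M -1.76, SE 0.053, adjusted p = 7.3e-18 from edgeR) and 2.69-fold on noTC dishes (log2 -1.43, SE 0.052, adjusted p = 2.6e-16 from edgeR).

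The 3 chains of the GM-CSF and IL-3 receptors were all higher in GM cells, by different amounts. Csf2ra, the ligand-binding alpha chain, had 149 and 171 CPM in GM-TC and 73.0 and 68.5 CPM in M-TC, a 2.26-fold difference (log2 1.18, SE 0.071, adjusted p = 2.2e-12 from edgeR). On noTC dishes it had 153 and 156 CPM in GM and 82.7 and 88.1 CPM in M cells, a 1.81-fold difference (log2 0.85, SE 0.069, adjusted p = 3.4e-10 from edgeR). Neither pair of groups overlapped. Csf2rb, the common beta chain, had 1995 and 1865 CPM in GM-TC and 180 and 179 CPM in M-TC, a 10.7-fold difference (log2 3.43, SE 0.060, adjusted p = 8.1e-22 from edgeR). On noTC dishes it had 2157 and 2152 CPM in GM and 184 and 192 CPM in M cells, an 11.5-fold difference (log2 3.52, SE 0.060, adjusted p = 5.0e-22 from edgeR). The common beta chain thus differed more between the cultures than the alpha chain did, with intervals (95%) of 3.30 to 3.55 and 1.03 to 1.32 on the log2 scale on TC dishes. Csf2rb2, the IL-3 beta chain, had 779 and 721 CPM in GM-TC and 181 and 171 CPM in M-TC, a 4.27-fold difference (log2 2.09, SE 0.059, adjusted p = 2.9e-18 from edgeR). On noTC dishes it had 788 and 778 CPM in GM and 186 and 190 CPM in M cells (log2 2.06, SE 0.059, adjusted p = 3.3e-18 from edgeR).

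Csf3r, the G-CSF receptor, went with Csf1r and was higher in M cells. It had 3.03 and 2.78 CPM in GM-TC and 3.02 and 2.81 CPM in GM-noTC. In M-TC it had 37.2 and 36.5 CPM, and in M-noTC 25.2 and 27.5 CPM. The lowest M library was far above the highest GM library, and the level in M was 12.7-fold that in GM on TC (log2 -3.67, SE 0.13, adjusted p = 1.1e-16 from edgeR) and 9.08-fold on noTC dishes (log2 -3.18, SE 0.13, adjusted p = 9.6e-16 from edgeR). Neutrophils are rich in this receptor. Between GM and M cells, the sum of the 9 neutrophil markers listed was lower in the culture where Csf3r was higher. All 9 had reads in GM cells, with a sum of 13.2 to 44.8 CPM per library. In M cells 6 had reads, with a sum of 0.337 to 2.16 CPM, and Elane, Ly6g and Mpo were at 0.

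**Figure D2:**
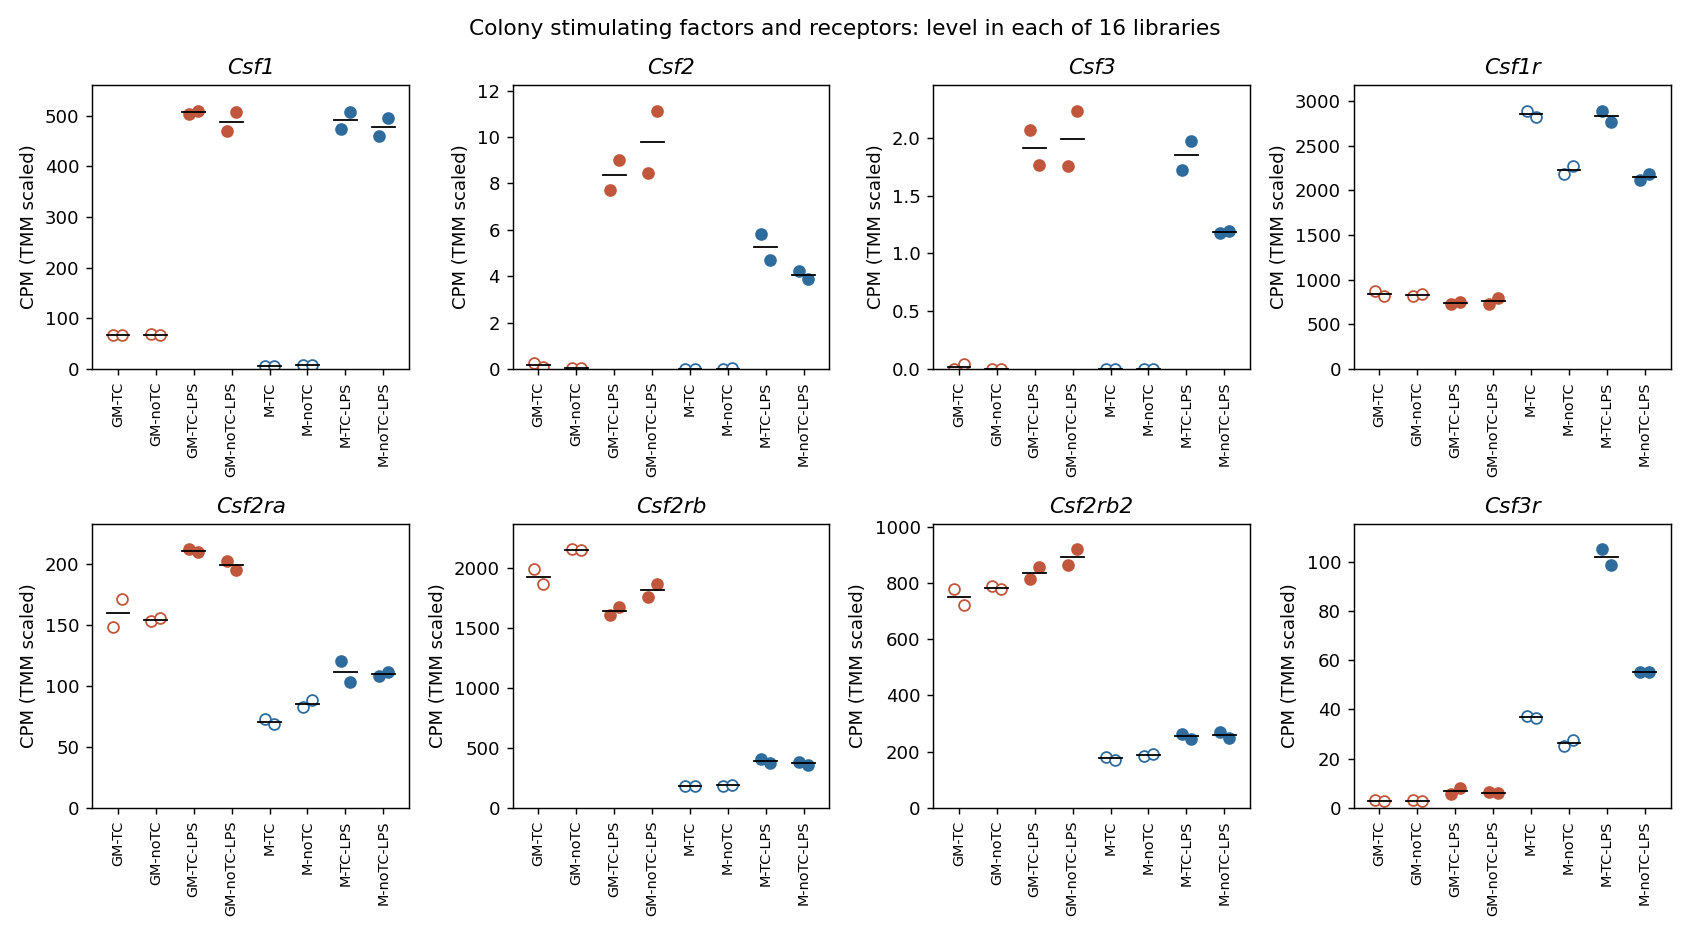
TMM-scaled CPM of each gene in each of the 16 libraries, by group, on linear axes from 0 with a scale for each gene. Points are libraries (open at steady state, filled upon LPS challenge; red GM, blue M) and bars are group means; the 3 ligand genes rise in all 4 cultures with LPS, while Csf1r keeps its order of M-TC over M-noTC over GM.

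Upon LPS challenge on TC dishes, 8 of the 8 genes were called in GM cells, 6 higher and 2 lower, where 32.8% of all genes tested were called higher and 34.2% lower. In GM-noTC cells 6 were called higher and 1 lower (33.6% and 34% of all genes). In M cells 7 were called higher and 0 lower on each dish, where 37.6% and 36.4% of all genes were called higher and lower in M-TC, and 36.4% and 35.9% in M-noTC. The comparisons of LPS with steady state within a culture and those of GM with M cells share libraries. The median log2 fold change of the 8 genes was 0.81 and 0.72 in GM cells and 1.30 and 1.02 in M cells, on TC and noTC dishes respectively, and that of all genes lay between -0.05 and -0.01.

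Csf1 rose in GM and M cells from different starting points to levels between 461 and 510 CPM. It had 503 and 510 CPM in GM-TC-LPS, 470 and 507 CPM in GM-noTC-LPS, 473 and 508 CPM in M-TC-LPS, and 461 and 496 CPM in M-noTC-LPS. All pairs of these 4 groups overlapped except GM-TC-LPS, which lay above M-noTC-LPS, and each group lay above all libraries at steady state. The rise was 7.54-fold in GM-TC (log2 2.91, SE 0.059, adjusted p = 4.5e-21 from edgeR) and 7.21-fold in GM-noTC (log2 2.85, SE 0.059, adjusted p = 6.0e-21 from edgeR). In M-TC it was 75.6-fold (log2 6.24, SE 0.077, adjusted p = 6.6e-25 from edgeR) and in M-noTC 62.6-fold (log2 5.97, SE 0.073, adjusted p = 6.3e-25 from edgeR). After LPS the log2 difference between GM and M cells was 0.05 on TC (95% interval -0.07 to 0.16, adjusted p = 0.46 from edgeR) and 0.03 on noTC dishes (95% interval -0.08 to 0.14, adjusted p = 0.64 from edgeR). The 7 stromal markers, of a cell type that also makes M-CSF, all had reads in both cultures and summed to 1.48 to 6.26 CPM at steady state and 23.2 to 49.7 CPM upon LPS challenge. Most of the latter was Pdgfrb, at 21.5 to 39.5 CPM as group means, and its part in the rise of Csf1 was not tested.

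Csf2 and Csf3 appeared upon LPS challenge and stayed far below Csf1. Csf2 had 7.70 and 9.01 CPM in GM-TC-LPS, 8.43 and 11.1 CPM in GM-noTC-LPS, 5.81 and 4.71 CPM in M-TC-LPS, and 4.21 and 3.89 CPM in M-noTC-LPS. All GM libraries with LPS lay above all M libraries with LPS. The rise was 51.6-fold in GM-TC (log2 5.69, SE 0.35, adjusted p = 5.3e-12 from edgeR), against 5 and 2 counts, and it was called with log2 6.62 without GM-TC replicate 1 and 5.02 without GM-TC replicate 2. In M-TC it was at least 45.3-fold (adjusted p = 7.7e-12 from edgeR). From 2 and 1 counts at steady state, the ratio was 253 in GM-noTC (exact 95% counting interval 69.6 to 2096) and 294 in M-noTC (52.1 to 11702). Csf2 was 1.58-fold higher in GM than in M cells after LPS on TC (log2 0.66, SE 0.19, adjusted p = 0.0052 from edgeR) and 2.42-fold higher on noTC dishes (log2 1.27, SE 0.20, adjusted p = 8.6e-06 from edgeR). On TC dishes this call was lost without GM-TC-LPS replicate 2 (log2 0.54, adjusted p = 0.065 from edgeR) and without M-TC-LPS replicate 2 (log2 0.53, adjusted p = 0.064 from edgeR). Csf3 had 40 and 38 counts in GM-TC-LPS and 37 and 49 counts in GM-noTC-LPS. M-TC-LPS had 35 and 34 counts, and M-noTC-LPS had 23 and 24. Its rise was at least 17.1-fold in GM-noTC, 15.9-fold in M-TC and 13.9-fold in M-noTC, and in GM-TC the ratio was 85.2 against 1 count (14.8 to 3407). All 4 rises of Csf3 passed (adjusted p = 6.4e-08 to 3.3e-07 from edgeR). Its log2 difference between GM and M cells after LPS was 0.05 on TC (95% interval -0.67 to 0.77) and 0.74 on noTC dishes (95% interval -0.01 to 1.49, adjusted p = 0.075 from edgeR), neither of them called. In these ligands, the intervals of the ratios and the floors cover counting error only. The SEs and the intervals of the log2 differences come from the edgeR fit.

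The receptor Csf1r changed little with LPS. It had 728 and 755 CPM in GM-TC-LPS, 728 and 800 CPM in GM-noTC-LPS, 2891 and 2770 CPM in M-TC-LPS, and 2119 and 2183 CPM in M-noTC-LPS. The fall in GM-TC was called (log2 -0.18, SE 0.052, adjusted p = 0.0035 from edgeR), and it was not without GM-TC replicate 1 (log2 -0.12, adjusted p = 0.057 from edgeR) or on the libraries of the comparison alone (adjusted p = 0.055 from edgeR and 0.18 from DESeq2). Its changes elsewhere, of -0.12 in GM-noTC, -0.05 in M-noTC and -0.01 in M-TC on that scale, were not called (adjusted p = 0.053, 0.39 and 0.82 from edgeR). That in GM-noTC was called with edgeR on its own libraries (adjusted p = 0.017) and without GM-noTC-LPS replicate 2 (-0.19, adjusted p = 0.011). With library size in place of TMM these 3 changes were -0.62, -0.78 and -0.84 and called, where the median log2 fold change of all genes was -0.54, -0.73 and -0.83. After LPS the difference between the cultures stayed, with log2 GM over M of -1.93 on TC and -1.49 on noTC dishes (adjusted p = 1.8e-18 and 1.5e-16 from edgeR).

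Csf2rb fell in GM and rose in M cells. It had 1607 and 1676 CPM in GM-TC-LPS and 1764 and 1873 CPM in GM-noTC-LPS, below the same dishes at steady state. In M-TC-LPS it had 410 and 373 CPM, and in M-noTC-LPS 384 and 356 CPM, above all M libraries at steady state. It fell in GM-TC (log2 -0.23, SE 0.054, adjusted p = 7.0e-04 from edgeR) and GM-noTC (log2 -0.24, SE 0.054, adjusted p = 4.2e-04 from edgeR), and it rose 2.18-fold in M-TC (log2 1.13, SE 0.057, adjusted p = 4.2e-14 from edgeR) and 1.97-fold in M-noTC (log2 0.98, SE 0.056, adjusted p = 5.2e-13 from edgeR). By library size in place of TMM the rise in M cells was smaller, from 250 and 250 CPM in M-TC to 324 and 290 CPM in M-TC-LPS. On noTC dishes it went from 255 and 263 CPM to 323 and 293 CPM. The fall in GM was larger by library size, from 2254 and 2068 CPM in GM-TC to 1292 and 1342 CPM in GM-TC-LPS. With the reads of both beta chains added together, the change in GM was -0.11 on TC and -0.12 on noTC dishes and was not called. The fall of Csf2rb in GM-TC was also not called with DESeq2 fitted to only the 4 libraries compared (-0.20, adjusted p = 0.056). Csf2rb2 had 816 and 856 CPM in GM-TC-LPS, 863 and 920 CPM in GM-noTC-LPS, 263 and 245 CPM in M-TC-LPS, and 269 and 247 CPM in M-noTC-LPS. It rose in all 4 cultures, by 0.16 and 0.19 on the log2 scale in GM-TC and GM-noTC and by 0.53 and 0.46 in M-TC and M-noTC (adjusted p = 0.018, 0.0058, 3.4e-08 and 3.2e-07 from edgeR). The rise in GM-TC was not called without GM-TC replicate 2 (log2 0.10, adjusted p = 0.12 from edgeR) or GM-TC-LPS replicate 2 (log2 0.12, adjusted p = 0.15 from edgeR), nor that in GM-noTC without GM-noTC-LPS replicate 2 (log2 0.14, adjusted p = 0.085 from edgeR).

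Csf2ra had 212 and 210 CPM in GM-TC-LPS, 203 and 195 CPM in GM-noTC-LPS, 120 and 103 CPM in M-TC-LPS, and 108 and 111 CPM in M-noTC-LPS. On TC dishes it rose by 0.40 in GM and 0.66 in M cells on the log2 scale (edgeR's adjusted p = 2.4e-05 and 3.0e-08), and on noTC dishes by 0.37 and 0.36 (edgeR's adjusted p = 6.2e-05 and 8.7e-05). These small rises depend on the scaling. With library size in place of TMM, the median of all genes moved to -0.53 in GM-TC and, as given above, to -0.54, -0.73 and -0.83 in GM-noTC, M-noTC and M-TC. In this order of the 4 cultures, the changes of Csf2ra were then -0.08, -0.14, -0.36 and -0.17, and those of Csf2rb2 -0.32, -0.32, -0.27 and -0.29, all above that median. Under it, 4 members were called higher and 3 lower in each GM comparison, and 5 higher and 3 lower in each M comparison. The shares of all genes called under this scaling were not computed, so these counts have no background beside them.

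Csf3r rose in all 4 cultures. It had 5.38 and 8.08 CPM in GM-TC-LPS, 6.49 and 5.79 CPM in GM-noTC-LPS, 105 and 98.9 CPM in M-TC-LPS, and 55.0 and 55.1 CPM in M-noTC-LPS. No group with LPS overlapped its steady state group. On TC dishes the rise was 2.34-fold in GM and 2.77-fold in M cells (edgeR's adjusted p = 1.4e-06 and 2.5e-13), and on noTC dishes 2.11-fold and 2.08-fold (edgeR's adjusted p = 6.2e-06 and 1.6e-10). By library size in place of TMM the rises were smaller, in M-noTC from 34.9 and 37.7 CPM to 46.3 and 45.4 CPM. After LPS the level in M was 15.0-fold that in GM on TC and 8.97-fold on noTC dishes (adjusted p = 1.3e-18 and 1.2e-16 from edgeR). The neutrophil marker sum was 13.2 to 17.2 CPM in GM-TC and 28.5 to 36.2 CPM in GM-TC-LPS. Of the 6 markers tested, 5 were called higher and 1 lower with LPS in GM-TC (32.8% and 34.2% of all genes). In GM-noTC 4 were called higher and 1 lower (33.6% and 34%). In M cells 1 was higher and 0 lower on each dish, with the shares of all genes given above. The part of these markers in the rise of Csf3r was not tested.

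Between GM and M cells after LPS, 4 of the 8 genes were called higher in GM and 2 lower on each dish, where 33.9% and 32.9% of all genes tested were called higher and lower on TC, and 33.5% and 32.6% on noTC dishes. The genes called higher were Csf2, Csf2ra, Csf2rb and Csf2rb2, and those called lower Csf1r and Csf3r. The log2 differences of Csf2ra, Csf2rb and Csf2rb2 on TC dishes were 0.92, 2.07 and 1.72 (adjusted p = 1.2e-10, 2.0e-18 and 9.4e-17 from edgeR). On noTC dishes they were 0.86, 2.30 and 1.79 (adjusted p = 3.8e-10, 4.0e-19 and 4.8e-17 from edgeR).

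**Figure D3:**
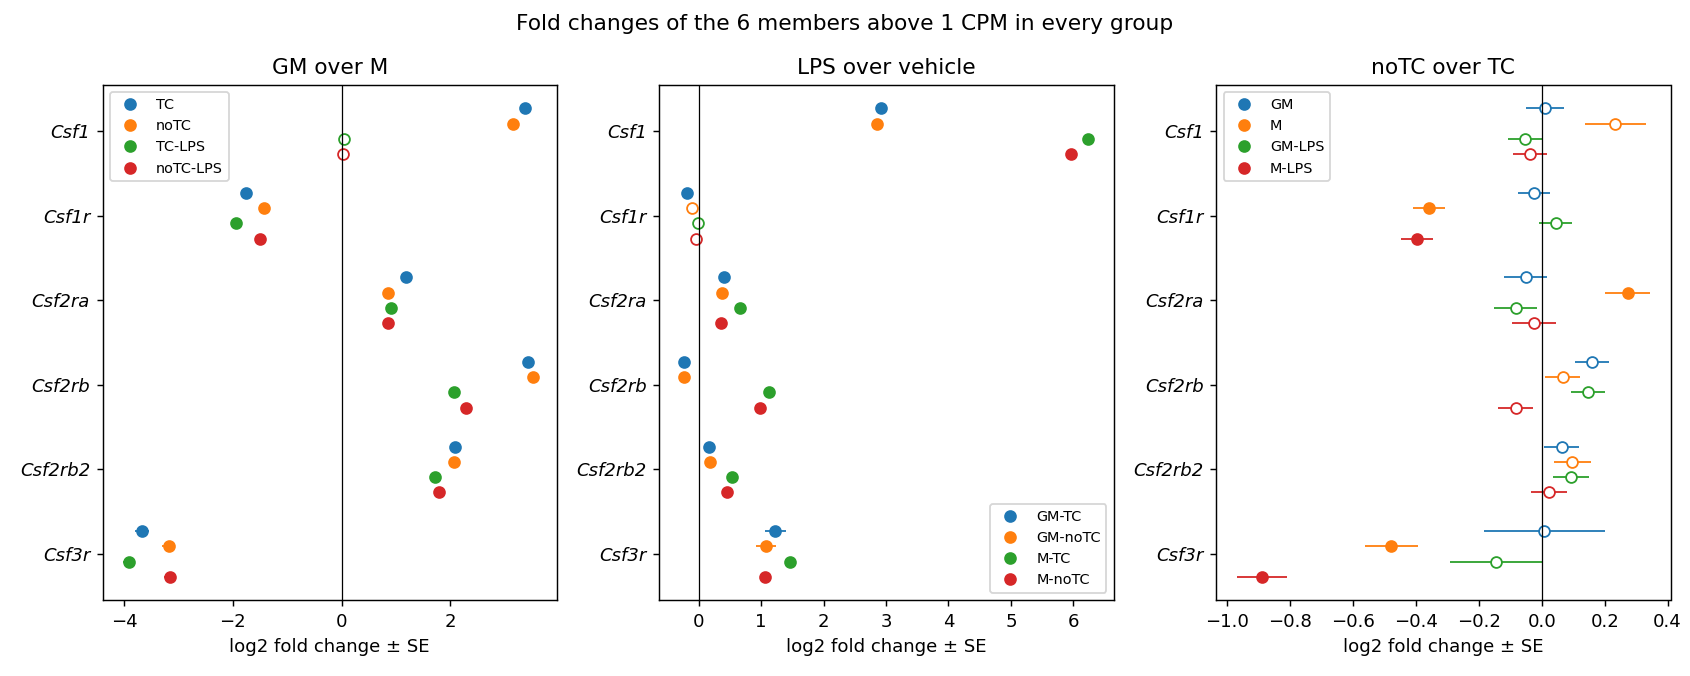
Log2 fold changes with SE of the 6 members above 1 CPM in every group, for GM over M cells (left), LPS over steady state (middle) and noTC over TC dishes (right, with a narrower axis), filled where called by edgeR; most SE bars in the left and middle panels are smaller than the points. Csf1 differs between GM and M cells at steady state but lies at 0.05 and 0.03 after LPS, and in the right panel the filled points are those of M cells.

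Because reads can be shared, the 2 beta chains were also compared as a pair within each library. Csf2rb held 71.9% and 72.1% of the reads of the pair in GM-TC and 73.2% and 73.4% in GM-noTC. In M-TC it held 49.9% and 51.3%, and in M-noTC 49.7% and 50.3%. Upon LPS challenge its share was 66.3% and 66.2% in GM-TC-LPS and 67.1% in both libraries of GM-noTC-LPS. In M-TC-LPS it was 60.9% and 60.4%, and in M-noTC-LPS 58.8% and 59.0%. Every GM library lay above every M library, and the gap was narrower with LPS. These are shares of counts, not corrected for exon length. Per length of exon, Csf2rb2 stood above Csf2rb in M-TC (37.1 and 24.7 CPM per kb) and M-noTC (39.6 and 25.8 CPM per kb). With near equal counts, this order comes from the exon lengths, 7277 bases for Csf2rb and 4740 bases for Csf2rb2. The longest coding sequences, of 2688 and 2634 bases, differ less, so the order depends on the length used. Csf2rb stood above Csf2rb2 in each GM group. The mean share was 69.7% ± 3.26 (SD, n = 8) in GM and 55.0% ± 5.15 (SD, n = 8) in M libraries, a difference of 14.6 percentage points (exact permutation test within dish and LPS, two-sided p = 0.00154, the smallest that 1296 regroupings can give).

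**Figure D4:**
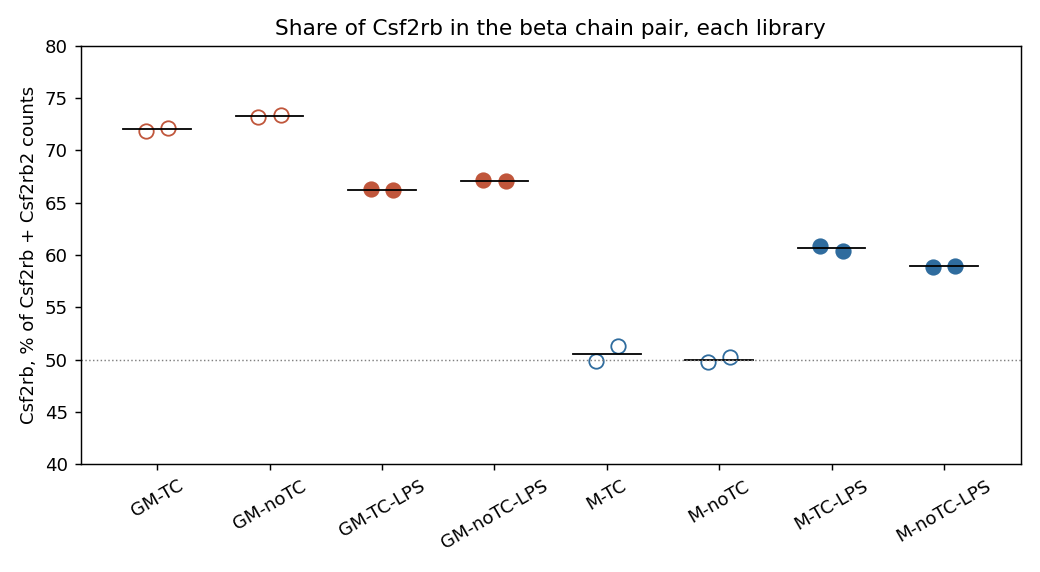
Csf2rb as a percent of the summed counts of Csf2rb and Csf2rb2 in each library, not corrected for exon length. Points are libraries (open at steady state, filled upon LPS challenge, red GM, blue M) and bars are group means. The dotted line marks equal shares of counts, and the axis runs from 40% to 80%. The share is 71.9% or more in GM at steady state, 51.3% or less in M at steady state, and between these values upon LPS challenge.

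Whether LPS acted on the genes to a different extent in GM and M cells was tested as an interaction. On TC dishes 5 of the 8 genes were called, where 41.1% of all genes tested were, and on noTC dishes 3 were, where 36.2% of all genes were. The response of Csf1 was smaller in GM than in M cells, with a log2 difference of -3.33 on TC (SE 0.097, adjusted p = 7.9e-17 from edgeR) and -3.12 on noTC dishes (SE 0.091, adjusted p = 1.7e-16 from edgeR). That of Csf2rb differed by -1.36 on TC and -1.22 on noTC dishes (adjusted p = 5.6e-12 and 3.7e-11 from edgeR), since the chain fell in GM and rose in M cells. Also called on TC dishes, beside Csf2rb2 below, were Csf2, which rests on the 7 counts of GM-TC against none in M-TC, and Csf2ra, at -0.26 (SE 0.099, adjusted p = 0.039 from edgeR). The latter was lost in 6 of the 8 fits without 1 library, those without GM-TC replicate 2 or either library of GM-TC-LPS or M-TC, and without M-TC-LPS replicate 1 (-0.29 to -0.15). It was also lost with edgeR (adjusted p = 0.11) and DESeq2 (adjusted p = 0.17) on the libraries of the comparison, and it was 0.08 with library size in place of TMM. For Csf2rb2 the difference was -0.38 and -0.27 (adjusted p = 7.2e-04 and 0.011 from edgeR). With library size in place of TMM it was -0.03 and -0.05 and not called, where the median of all genes was 0.30 and 0.19. On noTC dishes it was also not called without GM-noTC replicate 1 (-0.25, adjusted p = 0.055 from edgeR), GM-noTC-LPS replicate 1 (-0.22, adjusted p = 0.065), M-noTC replicate 1 (-0.24, adjusted p = 0.060) or M-noTC-LPS replicate 1 (-0.21, adjusted p = 0.087).

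In the main fit the dish had no called effect on any of the 8 genes in GM cells, which lies near the share of all genes called. At steady state 0 of 8 were called by edgeR, where 7.54% of all genes tested were, 1 (Csf2rb) passed an unadjusted p under 0.05, and DESeq2 called 0, fitted to all 16 libraries or only to the 4 compared. After LPS 0 of 8 were called, where 2.8% of all genes were, with 1 (Csf2rb) at an unadjusted p under 0.05 and 0 by DESeq2 in either fit. Csf2rb was 0.16 higher on noTC dishes on the log2 scale at steady state (95% interval 0.05 to 0.27, adjusted p = 0.080 from edgeR). With no filter on expression it passed (0.16, adjusted p = 0.037 from edgeR). It was called without GM-TC replicate 1 (0.21, adjusted p = 0.011 from edgeR), the library of lower depth in that group. The 95% interval of Csf1 in GM at steady state ran from -0.11 to 0.14 and that of Csf1r from -0.13 to 0.08. The 7 heart muscle markers summed to 20.3 to 40.5 CPM in GM-TC and at most 0.037 CPM in GM-noTC. In M-TC the sum was 32.9 to 55.2 CPM, and in M-noTC at most 0.034 CPM. All 7 were called lower on noTC dishes in GM and in M cells (7.54% of all genes called in GM in either direction, 11.1% lower in M). Their part in the dish results was not tested.

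In M cells the receptors of M-CSF and G-CSF were lower on noTC dishes. At steady state 3 of the 8 genes were called, 1 higher and 2 lower, where 16.1% and 11.1% of all genes tested were. Csf1r was lower by a log2 fold change of -0.36 (SE 0.051, adjusted p = 1.2e-05 from edgeR) and Csf3r by -0.48 (SE 0.085, adjusted p = 1.7e-04 from edgeR). Csf2ra was higher by 0.27 (SE 0.071, adjusted p = 0.0061 from edgeR), and this was not called without M-TC replicate 2 (0.22, adjusted p = 0.098 from edgeR) or M-noTC replicate 2 (0.22, adjusted p = 0.095 from edgeR). After LPS 0 were higher and 2 lower, where 10.4% and 12.9% of all genes were. Csf1r was again lower, by -0.40 (SE 0.051, adjusted p = 6.3e-06 from edgeR), and Csf3r by -0.89 (SE 0.080, adjusted p = 5.0e-08 from edgeR). The sums of the 9 neutrophil markers were 0.337 to 0.558 CPM in M-TC, 0.606 to 0.650 in M-noTC, 0.689 to 1.16 in M-TC-LPS and 0.549 to 2.16 CPM in M-noTC-LPS. The macrophage marker sum was 22293 to 22735 CPM in M-TC and 18347 to 19463 CPM in M-noTC, and 26715 to 27391 CPM in M-TC-LPS and 21104 to 22502 CPM in M-noTC-LPS. The sum was lower on noTC dishes and was mostly Lyz2 (19351 CPM in M-TC and 15434 CPM in M-noTC). Of the 7 markers, 2 were called higher and 3 lower at steady state (median 0.05), with Itgam going from 733 to 944 CPM, and 1 higher and 5 lower after LPS (median -0.22). The dendritic cell marker sum was higher on noTC dishes, at up to 17.1 CPM in M-TC and 48.1 to 48.5 CPM in M-noTC, and at 24.9 to 27.2 CPM in M-TC-LPS and 58.5 to 63.1 CPM in M-noTC-LPS. Most of it was Itgax, and 2 of the 6 markers tested were called higher at steady state and 1 after LPS. The part of either list in the results on Csf1r and Csf3r was not tested.

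As a test of the difference between the cultures, the dish effect in GM minus that in M cells was 0.34 for Csf1r (SE 0.072, adjusted p = 0.0035 from edgeR) and -0.32 for Csf2ra (SE 0.098, adjusted p = 0.035 from edgeR) at steady state, 2 of 8 genes where 11.2% of all genes tested were called. After LPS it was 0.44 for Csf1r (SE 0.073, adjusted p = 2.8e-04 from edgeR) and 0.74 for Csf3r (SE 0.17, adjusted p = 0.0051 from edgeR), again 2 of 8 where 10.6% of all genes were called. Csf2rb had 0.23 after LPS and was not called (adjusted p = 0.063 from edgeR). It was called with DESeq2 size factors in place of TMM (adjusted p = 0.035 from edgeR), without a filter (adjusted p = 0.024), without M-TC-LPS replicate 2 (0.30, adjusted p = 0.025) and with DESeq2 on all 16 libraries (adjusted p = 0.018) or on those compared (adjusted p = 0.034). The Csf3r difference was not called without GM-TC-LPS replicate 1 (0.49, adjusted p = 0.057 from edgeR) or GM-noTC-LPS replicate 1 (0.66, adjusted p = 0.051 from edgeR), and the Csf2ra difference was lost in each of the 7 fits without 1 library of the comparison other than GM-TC replicate 1 (-0.37 to -0.22 over these 7), and with DESeq2 in either fit. The LPS response on noTC minus that on TC dishes was called for 0 of the 8 genes in GM cells, where 0.783% of all genes were, with 0 at an unadjusted p under 0.05 and 0 by DESeq2 in either fit. In M cells it was called for 1, Csf3r, where 10.6% of all genes were (-0.41, SE 0.12, adjusted p = 0.026 from edgeR). It was not called with DESeq2 on all 16 libraries (adjusted p = 0.055) or with library size in place of TMM (adjusted p = 0.11 from edgeR), nor in 6 of the 8 fits without 1 library, the exceptions being those without M-noTC replicate 1 and M-TC-LPS replicate 2 (adjusted p up to 0.18 from edgeR).

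Csf1 in M cells at steady state was 0.23 higher on noTC dishes on the log2 scale (SE 0.098, adjusted p = 0.083 from edgeR). Genes near 0 on TC dishes (under 1 CPM) and at 100 CPM or more on average outside the steady state TC libraries, the 8 members left out, were compared in CPM by library size. Their excess on noTC over TC dishes, as a share of the mean level in the other libraries, had a median of 0.671% in GM (quartiles 0.654% and 0.741%, 14 genes) and 0.562% in M cells (quartiles 0.523% and 0.644%, 18 genes). By the same measure Csf1 had 0.321% in GM and 0.439% in M cells, both under the lower quartile. With the median share of each gene's level in the other libraries subtracted from the noTC libraries, the log2 difference of Csf1 in M cells was -0.04. Whether reads of other libraries are part of the difference was not tested.

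The list of related ligands and receptors held 9 genes, of which 4 could be tested. Il34, Il3, Il5, Il5ra and Flt3, among them the other ligands of Csf1r and of the beta chains, did not pass the filter on low counts. Kit, the receptor of stem cell factor, was 2.41 higher on the log2 scale in GM-TC than in M-TC cells (29.8 and 5.59 CPM, adjusted p = 5.0e-13 from edgeR). Its ligand gene Kitl (-1.25) and Flt3l, which encodes the ligand of FLT3 (-1.43), were lower in GM (adjusted p = 1.5e-10 and 4.4e-04 from edgeR). Il3ra, the alpha chain of the IL-3 receptor that pairs with both beta chains, had 15.6 CPM in GM-TC and 15.2 CPM in M-TC and was not called (log2 0.04, adjusted p = 0.71 from edgeR). Upon LPS challenge Kit and Flt3l fell in both GM-TC (-0.41 and -1.41) and M-TC (-0.54 and -1.09), Kitl rose by 0.30 in GM-TC, and Il3ra rose by 0.58 in M-TC (adjusted p = 0.0036, 0.010, 0.013, 0.0034, 0.019 and 6.6e-06 from edgeR). On noTC dishes Kit was lower in GM (-0.70) and Kitl higher in M cells (0.81) at steady state (adjusted p = 2.9e-04 and 8.1e-08 from edgeR).

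Of 21 genes that carry signals of these receptors (kinases, STAT factors, adaptors and phosphatases), 6 were higher and 9 lower in GM-TC than in M-TC cells (32.6% and 28.9% of all genes), with a median log2 fold change of -0.03. Jak2, the kinase bound to the common beta chain, and Pik3cd, a PI3-kinase subunit, were higher by 0.93 and 0.87 (adjusted p = 1.6e-11 and 5.2e-12 from edgeR). The ubiquitin ligase gene Cblb and the phosphatase gene Ptpn6 were lower by -1.17 and -0.95 (adjusted p = 2.1e-12 and 2.6e-12 from edgeR). Upon LPS challenge 11 rose and 7 fell in GM-TC (median 0.26; 32.8% and 34.2% of all genes), and 13 rose and 2 fell in M-TC cells (median 0.64; 37.6% and 36.4% of all genes). Jak2 went from 87.4 to 730 CPM in GM-TC (log2 3.06) and from 45.8 to 1020.5 CPM in M-TC (log2 4.48), and Stat5a, the factor that beta chain signaling activates, rose by 2.85 and 2.78 (adjusted p = 3.0e-21, 1.1e-23, 2.0e-18 and 3.3e-18 from edgeR). Inpp5d, a lipid phosphatase gene, fell, by a log2 difference of -2.64 and -2.56 (in edgeR, adjusted p = 6.1e-19 and 3.8e-19), and the next in size were Pik3cd in GM-TC (-1.18, adjusted p = 2.5e-14 from edgeR) and Fes in M-TC (-0.50, adjusted p = 1.3e-07 from edgeR). Between dishes, only Jak2 of the 21 was called in GM cells at steady state (0.35 higher on noTC, adjusted p = 4.7e-04 from edgeR, where 7.54% of all genes were called), and 1 was higher and 4 lower in M cells (16.1% and 11.1% of all genes). The latter were led by Inpp5d and Lyn (both -0.19, adjusted p = 0.020 and 0.0090 from edgeR), and Shc1 was 0.17 higher (adjusted p = 0.023 from edgeR). In M cells after LPS 0 were higher and 12 lower on noTC dishes (10.4% and 12.9% of all genes), with a median of -0.20.

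Of 5 genes that curb these receptors, 4 were higher and 1 lower in GM-TC than in M-TC cells (32.6% and 28.9% of all genes), with a median log2 fold change of 3.17. Cish, a STAT5 target gene, had 74.3 CPM in GM-TC and 0.312 CPM in M-TC (log2 7.89, SE 0.15, adjusted p = 1.9e-21 from edgeR), and Socs2 had 68.7 and 1.36 CPM (log2 5.66, SE 0.14, adjusted p = 2.6e-19 from edgeR). Adam17, which encodes a protease that sheds Csf1r from the cell surface, was lower in GM (log2 -0.87, adjusted p = 4.8e-12 from edgeR). With LPS, Socs3 rose from 25.3 to 492 CPM in GM-TC (log2 4.28) and from 2.82 to 1026 CPM in M-TC (log2 8.50), Socs1 rose by 3.53 in GM-TC, Cish by 7.46 in M-TC, and Socs2 fell by 0.99 on the log2 scale in GM-TC (adjusted p = 4.2e-23, 5.9e-26, 7.9e-19, 3.2e-21 and 1.6e-09 from edgeR). After LPS 2 were higher and 3 lower in GM-TC than in M-TC cells (33.9% and 32.9% of all genes). On noTC dishes Cish was lower in GM (-0.30), and Socs2 (-1.26) and Adam17 (-0.22) were lower in M cells at steady state (adjusted p = 0.0054, 0.0037 and 0.0043 from edgeR).

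The genes most like each member over the 16 libraries were found among 11045 genes with a mean of 1 CPM or more, by Pearson's r of log2(CPM + 0.5). The libraries share their groups, so r mostly describes the pattern over the 8 groups. Csf1 was closest to Sav1 (r = 0.997), Gm49339 (0.996) and the gene listed as 11-Sep, whose identifier belongs to Sept11 (0.995). For Csf2 the closest were Stat5a (0.996), Nfe2l1 (0.995) and Zc3h12a (0.994), and for Csf3 Stau1 (0.994), Tnip1 (0.994) and Gja1 (0.993). Csf1r went with Slc9a9 (0.998), Stab1 (0.997) and Gas6 (0.991), and Csf3r with Nadk (0.993), Clec4a1 (0.990) and Adgre1 (0.990). Of the GM-CSF receptor chains, Csf2ra was closest to Atp6v0e (0.990), Ccl17 (0.990) and Car2 (0.988), Csf2rb to Tmem165 (0.993), Fgr (0.992) and Bcap31 (0.990), and Csf2rb2 to Alas1 (0.998), Bst1 (0.997) and Slc39a2 (0.997).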

How the data were processed

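The authors aligned clean reads with HISAT2 and quantified genes with RSEM, per the study's methods, and the submitters' processing notes also name fastp 0.18.0, Bowtie2 2.2.8, StringTie 1.3.1, DESeq2 and edgeR. The genome build is not given in the sources used here. The deposited values are expected counts without normalization, and 6.56% to 8.19% of a library's values were not whole. They were rounded to whole counts. Groups were taken from the labels.

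After edgeR's filter on expression (by group) and TMM scaling, all 16 libraries entered 1 quasi-likelihood fit without a replicate block, in edgeR 4.0.16 under R 4.3.3 (common dispersion 0.00226), with adjusted p-values over 12514 genes. The alternatives were other scalings, no filter, DESeq2 1.42.0, fits to the libraries of a comparison, a replicate block and leaving out each library. Others were the higher of the methods' fold change thresholds (above 2, with unadjusted p under 0.05), subtraction of shared reads, and the beta chains added together. The lower fold change that the methods also name was not applied. Replicates differed by more than counting error in all groups, so none was counted as a duplicate. The chi-square per degree of freedom was 13.7 in GM-TC and 1.95 to 5.56 in the other groups. The members, the lists and the alternatives were chosen with earlier results of these data known. Named beside the 8 members were, for each pathway list and 5 comparisons (GM over M, LPS in GM and in M, all on TC dishes, and noTC over TC in GM and in M), up to 2 called genes higher and 2 lower, those with the largest changes, and the 3 genes most like each member. Markers of lymphoid cells (7 genes, 1.87 CPM or less in sum), mast cells and basophils (6 genes, 0.299 to 74.3 CPM, most of it Hdc) and heart muscle (7 genes, up to 55.2 CPM in TC libraries at steady state and up to 0.291 CPM elsewhere) were also summed. Exon length came from GENCODE M21, which held 22253 of the 22287 gene identifiers.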

Additional observations from a re-analysis of the deposited data

Results flagged for a closer look

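These results were singled out because an effect differed between 2 groups by a test of the difference itself, with edgeR's adjusted p. The LPS response in GM minus that in M cells on TC dishes was -3.33 on the log2 scale for Csf1 (adjusted p = 7.9e-17), -1.36 for Csf2rb (5.6e-12), -0.38 for Csf2rb2 (7.2e-04), -0.26 for Csf2ra (0.039) and -4.29 for Csf2 (0.040). The value of Csf2 is fitted against a group without counts, depends on edgeR's prior count and is no bound, and it was not called without GM-TC replicate 1 (adjusted p = 0.16), either M-TC library (0.13 and 0.14), GM-TC-LPS replicate 1 (0.055) or M-TC-LPS replicate 1 (0.058). On noTC dishes the same difference was -3.12 for Csf1 (1.7e-16), -1.22 for Csf2rb (3.7e-11) and -0.27 for Csf2rb2 (0.011).

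The LPS response on noTC minus that on TC dishes in M cells was -0.41 for Csf3r (adjusted p = 0.026 from edgeR), and for Csf2ra it was -0.30 and not called (0.064). The dish effect in GM minus that in M cells was 0.34 for Csf1r (0.0035) and -0.32 for Csf2ra (0.035) at steady state. After LPS it was 0.44 for Csf1r (2.8e-04) and 0.74 for Csf3r (0.0051). No group had 4 or more libraries, so no library was tested as lying apart from its group.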

How the results depend on the processing

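Of 1177 values recomputed for 83 results on single genes, 1051 kept their direction and side of the threshold, 91 were no longer past it, 16 were newly past it and 19 changed sign. With 2 libraries a group, leaving out 1 assumes that the lone library varies like those of other groups. Small differences, Csf2 and Csf3 at steady state and the split of reads between the beta chains are what depth and replication limit most. The cause of the changes below was not tested.

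With library size in place of TMM, the LPS changes of Csf2ra (-0.08 and -0.14 in GM on TC and noTC dishes, -0.17 and -0.36 in M) and Csf2rb2 (-0.32, -0.32, -0.29 and -0.27 in the same order) changed sign. So did the Csf2ra LPS response in GM minus M on TC dishes (0.08) and the Csf1 difference of GM and M after LPS on noTC dishes (-0.04). With the beta chains added together, the LPS change of Csf2rb2 in GM became -0.11 on TC and -0.12 on noTC dishes. After the subtraction of shared reads, Csf1 on noTC over TC dishes in M cells was -0.04, and its LPS response on noTC minus TC dishes in M cells was 0.00, against -0.27. Leaving out 1 library gave -0.01 at the lowest and 0.10 at the highest for Csf1 of GM over M after LPS on TC dishes, -0.03 to 0.08 on noTC dishes, and -0.05 to 0.02 for Csf1r with LPS in M-TC.

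Under a fold change above 2 and unadjusted p under 0.05, the number of the 8 genes called fell in several comparisons. With LPS it fell to 4 in GM-TC, GM-noTC and M-noTC and to 5 in M-TC. For GM over M it fell to 5 on noTC dishes, 4 on TC dishes after LPS and 5 on noTC dishes after LPS. For the dish in M cells it fell to 0 at steady state and after LPS. The study also used a lower fold change between dishes after LPS. Csf3r in M cells, 1.85-fold lower on noTC dishes after LPS (unadjusted p = 3.4e-10 from edgeR), passed that one. For the LPS response in GM minus M the number fell to 3 on TC and 2 on noTC dishes. It fell to 0 for the LPS response on noTC minus TC dishes in M. For the dish effect in GM minus M it fell to 0 at steady state and after LPS. DESeq2 on the libraries of the comparison called 5 with LPS in GM-TC. For the LPS response in GM minus M on TC dishes, 3 were called by edgeR or DESeq2 on those libraries and with library size only. For the dish effect in GM minus M at steady state, 1 was called with DESeq2 in either fit, its size factors, edgeR on those libraries or library size only. Without a filter, 1 was called for the dish in GM and 2 for the LPS response on noTC minus TC dishes in M, where library size only gave 0. Leaving out 1 library gave 3 to 5 for the LPS response in GM minus M on TC dishes, 0 to 2 for that on noTC minus TC dishes in M, 0 to 1 for the dish in GM, and 1 to 2 at steady state and 1 to 3 after LPS for the dish effect in GM minus M. The shares of all genes called were not computed under these alternatives, so these counts have no background beside them.

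The replicate number did not pair the libraries: the deviations of same-numbered libraries correlated between -0.06 and 0.04 over 12 comparisons. With the replicate block, all counts of called genes (7 for GM over M on TC dishes and 8 for LPS in GM-TC, for example) and all single-gene calls were the same.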
